A study of Mus musculus with 4 samples.

Results

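The genes described here encode the muscle acetylcholine receptor and the proteins that gather it under the motor nerve ending. They were chosen by name, as the 10 rows of the expression table named *Chrna1*, *Chrnb1*, *Chrnd*, *Chrng*, *Chrne*, *Musk*, *Rapsn*, *Dok7*, *Lrp4* and *Agrn*, of 55267 rows in all. RNA was measured in cultured muscle stem cells (MuSCs) of 9-week-old female mice of the strain C57BL/6N carrying Tg(Pax7-EGFP)Tajb, a transgene in which *Pax7*, a marker of MuSCs, reports through green fluorescence. Cells of limb, back and breast muscles were grown for 1 day, sorted for the fluorescence, and grown for 2 more days at 3% oxygen. Every culture then spent 6 h without serum and with 200 ng/mL of BMPR-1A-Fc, a soluble receptor that binds BMPs. The treated cells received 100 ng/mL of BMP6, a ligand of the BMP pathway, for 1 h, and the control cells received the vehicle, 4 mM HCl with 0.1% BSA. There were 2 libraries per group, and the control and BMP6 libraries of the same replicate number share a batch label. The labels do not say how many mice went into a replicate, and p-values measure the spread between these libraries only.

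The adult muscle receptor is a pentameric channel built from α, β, δ and ε chains. In the embryo, in cultured myotubes and after loss of the nerve, a γ chain, encoded by *Chrng*, takes the place of the ε chain, encoded by *Chrne*. The motor nerve and muscle secrete different splice forms of agrin (*Agrn*), and the form from the nerve binds LRP4 on the muscle surface. LRP4 then activates the receptor tyrosine kinase MuSK, the cytoplasmic adaptor DOK7 holds MuSK in its active form, and rapsyn (*Rapsn*) ties the receptors together from inside the cell. Mutations in many of these genes cause congenital myasthenic syndromes.

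The promoters of the embryonic and adult subunit genes are shown first, since their levels differed most, with that of *Dok7*, whose level differed most between the treatments. Each window runs from 250 bases before to 50 bases after the start of the transcript with the highest mean TPM (transcript abundance per unit of length, scaled to a sum of 1000000 in each library) and was read from GRCm39, the build of the files. Capitals mark the E-box variant CAGCTG, a letter pattern that myogenic bHLH factors such as MYOD and myogenin bind, the N-box CCGGAA, which ETS factors bind in synaptic genes and which reads TTCCGG when it lies on the other strand, and GGCGCC, a GC-rich element that SMAD proteins can bind. The windows are *Chrna1* (chr2:73410633-73410932, minus strand), *Chrng* (chr1:87133283-87133582, plus strand), *Chrnd* (chr1:87118109-87118408, plus strand), *Chrne* (chr11:70509971-70510270, minus strand) and *Dok7* (chr5:35213956-35214255, plus strand).
Chrna1: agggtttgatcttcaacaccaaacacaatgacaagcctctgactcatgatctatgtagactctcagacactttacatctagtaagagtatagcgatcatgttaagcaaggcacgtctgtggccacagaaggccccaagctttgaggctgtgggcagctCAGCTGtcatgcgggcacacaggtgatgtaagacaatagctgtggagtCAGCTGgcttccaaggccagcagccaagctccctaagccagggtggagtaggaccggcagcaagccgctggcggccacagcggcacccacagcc
Chrng: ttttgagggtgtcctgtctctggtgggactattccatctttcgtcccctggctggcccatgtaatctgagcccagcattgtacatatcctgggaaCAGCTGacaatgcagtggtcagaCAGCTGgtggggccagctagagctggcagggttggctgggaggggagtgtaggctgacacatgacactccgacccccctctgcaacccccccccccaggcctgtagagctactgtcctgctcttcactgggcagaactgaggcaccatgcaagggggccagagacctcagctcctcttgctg
Chrnd: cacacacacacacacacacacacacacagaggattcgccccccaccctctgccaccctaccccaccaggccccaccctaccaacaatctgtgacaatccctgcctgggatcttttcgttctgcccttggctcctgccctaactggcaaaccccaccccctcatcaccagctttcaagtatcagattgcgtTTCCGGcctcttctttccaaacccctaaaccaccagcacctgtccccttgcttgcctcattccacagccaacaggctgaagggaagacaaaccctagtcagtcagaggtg
Chrne: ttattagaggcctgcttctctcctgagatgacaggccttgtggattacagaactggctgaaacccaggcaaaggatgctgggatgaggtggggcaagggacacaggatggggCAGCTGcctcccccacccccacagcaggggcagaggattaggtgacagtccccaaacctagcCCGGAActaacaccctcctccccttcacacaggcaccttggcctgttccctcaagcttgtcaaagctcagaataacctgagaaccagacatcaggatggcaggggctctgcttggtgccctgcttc
Dok7: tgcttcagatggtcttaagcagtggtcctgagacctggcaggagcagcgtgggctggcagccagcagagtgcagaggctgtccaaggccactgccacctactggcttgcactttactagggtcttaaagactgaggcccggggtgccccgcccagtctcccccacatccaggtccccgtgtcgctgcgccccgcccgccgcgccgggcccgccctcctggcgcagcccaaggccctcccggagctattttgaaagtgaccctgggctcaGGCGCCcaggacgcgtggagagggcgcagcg

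CAGCTG was found 2 times in the *Chrna1* window and 2 times in the *Chrng* window, and the second match in *Chrng* overlapped a CAGAC. Windows with 2 or more CAGCTG made up 1.49% of the 13126 windows of tested entries, and windows with at least 1 made up 15.0%. *Musk*, *Rapsn* and *Chrne* held it 1 time each, and *Chrnb1*, *Chrnd*, *Dok7*, *Lrp4* and *Agrn* did not hold it. The looser E-box CANNTG, which includes CAGCTG, was in 9 of the 10 windows, all but that of *Lrp4*, and in 63.6% of all windows. The N-box was in the windows of *Chrnd*, *Chrne* and *Lrp4*, and in 26.3% of all windows. Of the short SMAD elements, GGCGCC was in the windows of *Chrnb1*, *Rapsn*, *Dok7* and *Agrn* (19.8% of all windows), and CAGAC was in 8 of the 10 windows, all but those of *Chrnd* and *Dok7* (47.0% of all windows). Both strands were searched in each case, and a match describes letters only.

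**Figure D1:**
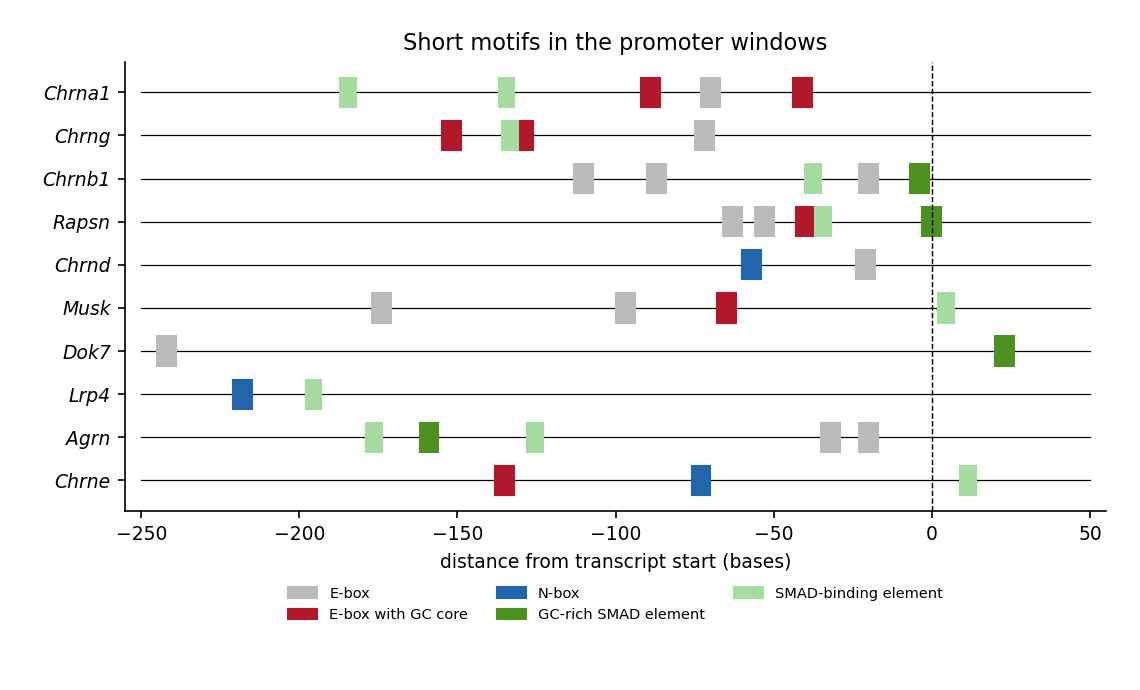
Position of short motifs in the 10 promoter windows, in bases from the transcript start (dashed line), with genes ordered by control level from the top. Colored boxes are matches on either strand, red boxes are E-boxes with a GC core, and both *Chrna1* and *Chrng* hold 2 of them.

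The libraries were checked first. Estimated reads per library, rebuilt from coverage, ranged from 108100000 to 112000000. The direct BMP targets *Id1*, *Id3* and *Smad7* rose by 2.33, 2.46 and 2.01 on the log2 scale after BMP6 (adjusted p by limma 0.0164, 0.0104 and 0.0511). *Pax7*, named outside the rule for naming genes because the sort used it, averaged 9.51 ± 1.73 TPM (SD, n = 2) in the control group, against 4962 TPM for *Myog*, which drives differentiation, and 11742 TPM for *Acta1*, skeletal muscle actin. The label muscle stem cell thus describes the sort, and at harvest genes of muscle differentiation stood far above *Pax7*. In bulk RNA, fewer cells of a type and less RNA per cell cannot be told apart.

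RNA for the embryonic receptor was abundant and RNA for the adult ε subunit was close to absent. *Chrna1*, the ligand-binding α subunit (GRCm39 chromosome 2, 73393559 to 73410682, minus strand), had 1204 and 1170 TPM in the control libraries and 1136 and 1130 TPM in the BMP6 libraries. *Chrng* (chromosome 1, 87133533 to 87140416, plus strand) had 337 and 319 TPM in the control libraries and 331 and 297 TPM in the BMP6 libraries. *Chrne* (chromosome 11, 70505709 to 70510042, minus strand) had 0.117 and 0.112 TPM in the control libraries and 0.106 and 0.132 TPM in the BMP6 libraries. The γ subunit thus stood above 95.4% of the 10645 tested entries with a regular gene name in the control group and *Chrna1* above 99.2% of them, while *Chrne* fell below the limit of 1 TPM for testing.

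The remaining receptor subunits lay between these extremes. *Chrnb1*, the β subunit, had 264 and 276 TPM in control and 260 and 257 TPM in BMP6 libraries. *Chrnd*, the δ subunit, had 124 and 116 TPM in control and 119 and 121 TPM in BMP6 libraries. *Chrnd* ends 5740 bases before *Chrng* on the same strand of chromosome 1, and the 2 neighbors differed in level in every library. Of the summed TPM of the 5 subunit genes, *Chrna1* took 62.2% and 62.4% in the control libraries and 61.5% and 62.6% in the BMP6 libraries. *Chrng* took 16.9% to 17.9% in 3 libraries and 16.4% in BMP6 replicate 2, and *Chrne* took at most 0.0073% in any library. The TPM of *Chrna1* was 4.24 to 4.56 times that of *Chrnb1* across the 4 libraries, 3.43 to 3.81 times that of *Chrng* and 9.37 to 10.1 times that of *Chrnd*. Both groups of libraries overlapped in each of these ratios except that of *Chrna1* to *Chrnd*. For that ratio the control libraries were at 9.70 and 10.1 and the BMP6 libraries at 9.54 and 9.37. TPM is averaged over the whole transcript, and the last exon of *Chrna1*, 3093 bases long, was covered less than its earlier exons. Mean control coverage of all earlier exons, on the TPM scale, was 2859 for *Chrna1*, 285 for *Chrnb1*, 519 for *Chrng* and 120 for *Chrnd*. In those exons *Chrna1* stood further above the others, so the shares and ratios hold for whole transcripts only.

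The question whether BMP6 moved the balance of embryonic to adult subunit was put to the ratio of *Chrng* to *Chrne*. The ratio of their TPM was 2882 and 2841 in the control libraries and 3111 and 2242 in the BMP6 libraries. On the log2 scale the means were 11.48 ± 0.015 (SD, n = 2) in control and 11.37 ± 0.33 (SD, n = 2) in BMP6 libraries, a difference of -0.12. An exact two-sided permutation test gave p = 1.0, where the smallest p that 2 libraries against 2 can give is 0.3333. Replicate 1 went up by 0.11 and replicate 2 went down by 0.34, so the sign of the difference depended on the library: it was 0.12 without BMP6 replicate 2. The denominator rested on few reads. The coverage of *Chrne* amounts to 10.6 to 12.8 reads per library, against 49532 to 59846 reads for *Chrng*. These estimates carry at least counting error. The protocol has no molecular identifiers, so amplified copies could not be told apart from separate molecules.

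**Figure D2:**
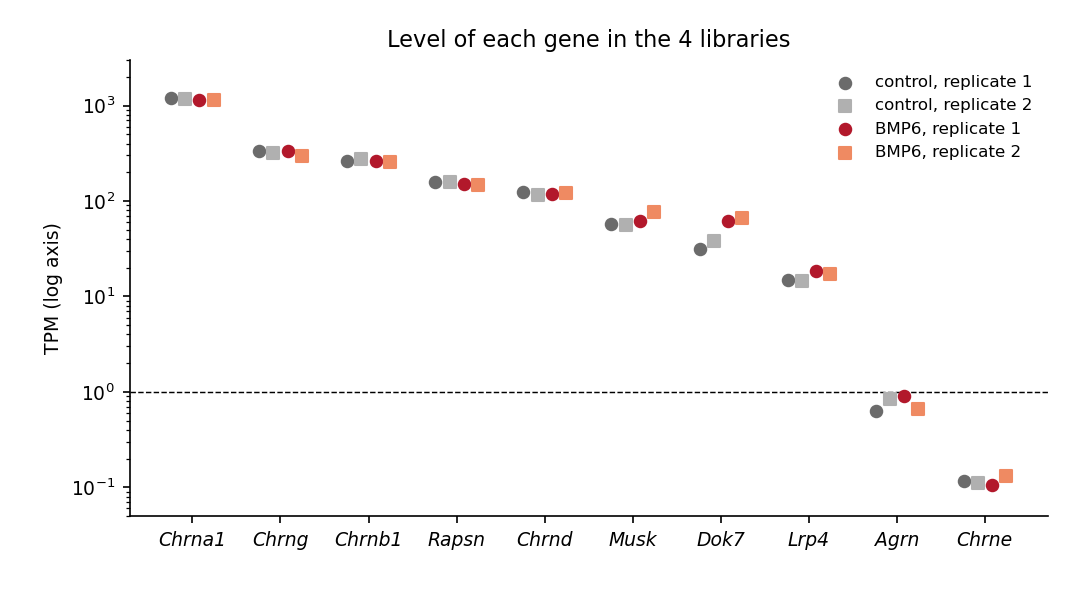
TPM on a log axis for the 10 genes, ordered by control mean, with 1 point per library and the dashed line at the limit of 1 TPM for testing. *Chrna1* is highest at 1130 to 1204 TPM, *Agrn* and *Chrne* lie under the line, and only *Musk*, *Dok7* and *Lrp4* have both BMP6 points above both control points.

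Among the clustering genes, the scaffold *Rapsn* was the most abundant. *Rapsn* (chromosome 2, 90865965 to 90876074, plus strand) had 158 and 159 TPM in control and 152 and 148 TPM in BMP6 libraries, which is 0.082 to 0.085 of the summed subunit TPM. That sum is mostly *Chrna1*, so the thinly covered last exon of *Chrna1* limits this share too. *Musk* (chromosome 4, 58285960 to 58374303, plus strand) had 57.9 and 56.4 TPM in control and 62.2 and 76.7 TPM in BMP6 libraries. *Dok7* (chromosome 5, 35214110 to 35245183, plus strand) had 31.6 and 38.3 TPM in control and 61.5 and 66.3 TPM in BMP6 libraries. In the control group *Musk* lay above *Dok7* with a ratio of 1.83 and 1.47, and in the BMP6 group the 2 genes overlapped with a ratio of 1.01 and 1.16.

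*Lrp4* (chromosome 2, 91287856 to 91344124, plus strand) had 14.8 and 14.3 TPM in control and 18.3 and 17.2 TPM in BMP6 libraries, a level that rests mostly on its last exon. *Agrn* (chromosome 4, 156249747 to 156281945, minus strand) had 0.623 and 0.846 TPM in control and 0.900 and 0.661 TPM in BMP6 libraries, and the groups overlapped. The order of the control means was *Chrna1*, *Chrng*, *Chrnb1*, *Rapsn*, *Chrnd*, *Musk*, *Dok7*, *Lrp4*, *Agrn* and *Chrne*, and no neighbors in that order overlapped between the 2 control libraries. The order of the means was the same in the BMP6 group, where *Musk* and *Dok7* were the only overlapping neighbors.

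The response to BMP6 was small for the receptor and largest for *Dok7*. Of the 10 genes, 8 had a mean of at least 1 TPM and were tested with limma on log2(TPM + 1), with p-values adjusted over all 13128 tested entries. None of the 8 reached the thresholds of the comparison, 2-fold up or down together with an adjusted p below 0.1, which 0.225% of the 10645 named entries passed upward and 0% downward. At the adjusted p alone, 0.263% of named entries were higher after BMP6, and again 0 of the 8 genes passed. At an unadjusted p under 0.05, 1 of the 8 passed, *Dok7*, against 3.12% of named entries. With the replicate number as a block 3 of the 8 passed, *Dok7*, *Musk* and *Lrp4*, against 12.7% of named entries. By limma voom on rebuilt reads 0 of the 8 passed the adjusted p and 2 the unadjusted p, which 3.08% of named entries passed in that fit.

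*Dok7* was 1.81-fold higher after BMP6, with a log2 fold change of 0.86 ± 0.12 (SE) and a 95% interval of 0.55 to 1.16. It was higher in both replicate pairs, by 0.94 and 0.78. In the fit without pairing its unadjusted p was 0.000459 and its adjusted p 0.158, rank 35 of the 10645 named entries. With the replicate number as a block, limma gave an SE of 0.076, a 95% interval of 0.68 to 1.03 and an adjusted p of 0.00068. With that block 1.32% of named entries were higher and 0.319% lower at an adjusted p under 0.1, and *Dok7* was the only 1 of the 8 genes among them. No fit brought the estimate to a fold of 2.

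*Musk* and *Lrp4* also had both BMP6 libraries above both controls, and neither passed the test. The log2 fold change of *Musk* was 0.27 ± 0.12 (SE). Its 95% interval was -0.033 to 0.57 without the block and 0.066 to 0.47 with it. Its adjusted p by limma was 1.0 (0.269 with the block). BMP6 replicate 2 set much of the fold change of *Musk*: the pairs differed by 0.10 and 0.44, and leaving out BMP6 replicate 2 or BMP6 replicate 1 gave 0.12 or 0.42. The log2 fold change of *Lrp4* was 0.26 ± 0.11 (SE). Its 95% interval was -0.014 to 0.54 without the block and 0.066 to 0.46 with it, and its adjusted p by limma was 1.0 (0.269 with the block). The pairs of *Lrp4* differed by 0.29 and 0.24. Its coverage lay mostly in the last exon, and whether those reads come from the coding transcript was not tested, so its level and fold may not be those of that transcript.

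The receptor subunits and *Rapsn* lay close to 0 change, with intervals that leave room for small shifts. The log2 fold changes were -0.067 for *Chrna1*, -0.059 for *Chrnb1*, -0.0010 for *Chrnd*, -0.065 for *Chrng* and -0.083 for *Rapsn*, each with an adjusted p of 1.0 by limma. The 95% intervals of these 5 genes together reached from -0.28 to 0.21, the bounds of *Chrng* and *Chrnd*. *Chrna1*, *Chrnb1*, *Chrng* and *Rapsn* were lower in both replicate pairs, whereas *Chrnd* was lower in replicate 1 and higher in replicate 2. Both BMP6 libraries lay above both controls for 3 of the 8 genes (17.4% of named entries) and below them for 3 of the 8, *Chrna1*, *Chrnb1* and *Rapsn* (10.8% of named entries). The median log2 fold change was -0.030 over the 8 genes, -0.062 over the 4 tested subunits and 0.016 over all tested entries.

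**Figure D3:**
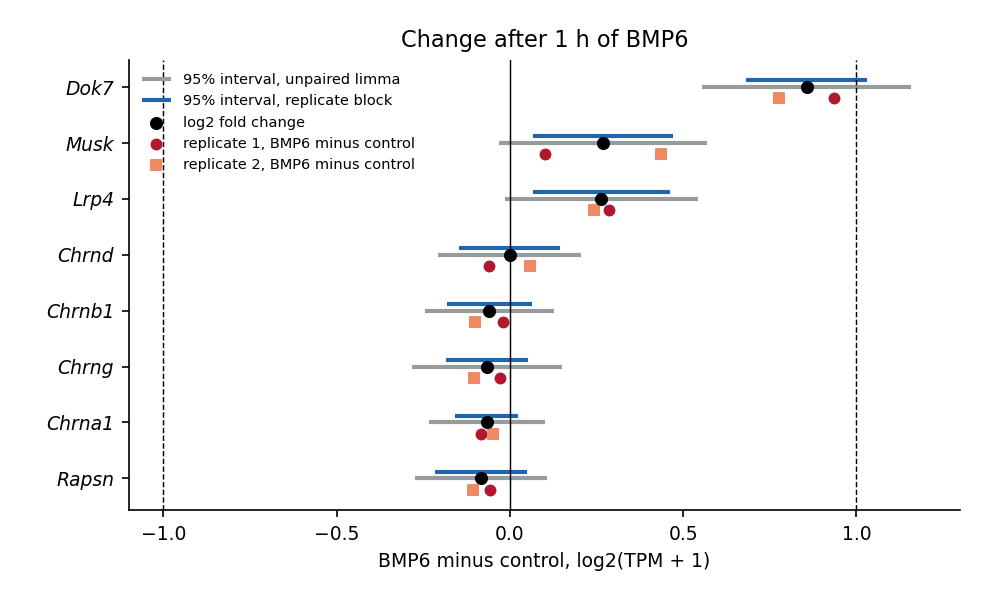
Log2 fold change of the 8 tested genes (BMP6 minus control, log2(TPM + 1)), with the 95% interval of limma without pairing (gray) and with the replicate block (blue), and the difference within each replicate. Dashed lines mark a fold of 2 and of 0.5. *Dok7* alone lies clear of 0 in both fits, at 0.86.

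The deposited files also give coverage for every exon, which was put on the TPM scale of its library and averaged over exon regions (exons of different transcripts that overlap were joined). Regions of the same gene share libraries and transcripts, so counts of regions describe where a difference lies and add no replicates. Such counts were not made for other genes. For *Dok7* the difference ran through the whole gene: 10 of 10 exon regions had both BMP6 libraries above both controls, with ratios of mean coverage from 1.61 to 2.11. The transcript with 7 exons, which ends in the seventh region, took 89.5% to 94.4% of *Dok7* TPM. The transcript with 9 exons took 5.40% to 7.55%, and the 3 regions found only in it had 1.93 to 6.34 on the TPM scale. Its last region was at 1.93 and 3.06 in the control libraries and 4.15 and 6.34 in the BMP6 libraries. These 2 forms were thus both higher after BMP6. The third transcript, with 5 exons, had 0.0593 and 1.31 TPM in control and 0.130 and 0.0643 TPM in BMP6 libraries, and the groups overlapped.

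For *Lrp4* coverage was concentrated in the last exon. The last exon has 2351 bases, of which 330 are coding in GENCODE M39, and its coverage was 45.4 and 43.9 in control and 57.0 and 53.3 in BMP6 libraries on the TPM scale. The 37 earlier exons, with 5575 bases, averaged 1.92 and 1.90 in control and 1.95 and 1.93 in BMP6 libraries. The last exon thus stood 23.1 to 29.2 times above the rest of the transcript. The ratio of BMP6 to control was 1.24 in the last exon and 1.01 in the earlier exons. Both BMP6 libraries were above both controls in 10 of the 38 exon regions, the last among them, and below both in 5. The difference of *Lrp4* between the groups thus came mostly from the coverage of its last exon, and the average of the earlier exons was near 2 TPM in all 4 libraries. No other gene of GENCODE M39 overlaps *Lrp4*.

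*Musk* showed the opposite slope, with more coverage at its 5′ end. The exon regions from 3 to 5 had 96.4 to 134 on the TPM scale and the last 4 regions had 33.6 to 62.0. In these last 4 regions BMP6 replicate 2 stood at 53.6 to 62.0, and the other 3 libraries at 33.6 to 43.5. Both BMP6 libraries were above both controls in 12 of 16 regions. A pair of small exons that only some *Musk* transcripts carry were covered less than their neighbors: the 30-base exon at chr4:58327326-58327355 had 31.6 to 38.8 where the exon before it had 97.7 to 134, and the 24-base exon at chr4:58356482-58356505 had 17.0 to 22.4 where the exon before it had 65.2 to 86.8. Their sequences on the plus strand are printed to identify them.
Musk 30-base exon: aagacagagaacctgagcaggacgctaaag
Musk 24-base exon: attataaaaaagaaaacataacaa

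*Agrn* was the least covered gene of the clustering group, with 288 to 409 estimated reads per library. Its last exon had 1.94 to 3.45 on the TPM scale and its earlier exons averaged 0.224 to 0.319, so most of its reads came from the 3′ end. The transcript to which at least 98.3% of *Agrn* TPM was assigned in each library contains 3 short optional exons near that end, of 12, 24 and 33 bases. The longer 2 of them correspond by size and place to the exons that neurons include to make agrin active in clustering. All 3 were listed at 0 in all 4 libraries, so the TPM assigned to this transcript does not rest on reads in them. A transcript of 35 exons that lacks them was listed at 0 TPM, and which transcript the reads came from was not tested. The exon regions before and after the 24-base and 33-base exons were at 1.07 to 2.39, and inclusion in a small share of transcripts would not be detectable at this depth. The exons, on the minus strand of GRCm39, lie at chr4:156254003-156254014, chr4:156253003-156253026 and chr4:156252234-156252266.
Agrn 12-base exon: aaatcccgcaag
Agrn 24-base exon: cgagctgaccaatgagatcccagc
Agrn 33-base exon: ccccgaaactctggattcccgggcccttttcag

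*Chrna1*, *Chrnb1*, *Chrnd*, *Chrng* and *Rapsn* were covered along their whole length. Each library listed some *Chrne* exon regions at 0, but none of the 12 regions was at 0 in all 4 libraries. *Chrng* had 469 to 534 on the TPM scale over its first 11 exon regions and 122 to 138 in the last. *Chrna1* had 2704 to 2895 over its first 8 and 472 to 497 in the last, whose noncoding part holds a repeat: stretches of the transcript matched transcripts of 131 other genes at 95% identity or more over at least 100 bases. Reads from such copies could count toward the last exon of *Chrna1*, whose ratio of BMP6 to control, 0.969, was close to the 0.948 of its earlier exons. *Musk* matched only Gm68860, a noncoding gene that overlaps it, and *Chrnb1*, *Chrnd*, *Chrng*, *Chrne*, *Rapsn*, *Dok7*, *Lrp4* and *Agrn* had no such match. The libraries are unstranded, and in GENCODE M39 exons of *Chrna1*, *Musk*, *Rapsn* and *Agrn* overlap noncoding genes of the opposite strand, whose reads could not be told apart from theirs. *Rapsn* had both BMP6 libraries below both controls in 7 of 8 regions, with ratios from 0.900 to 0.965. *Chrnb1* had them so in 6 of 11 and *Chrna1* in 5 of 9, while *Chrng* and *Chrnd* had 1 such region of 12 each. Of the *Chrnd* TPM the transcript with 12 exons took 52.6% to 70.0%, and of the *Rapsn* TPM the transcript with 8 exons took 90.97% to 93.2%.

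**Figure D4:**
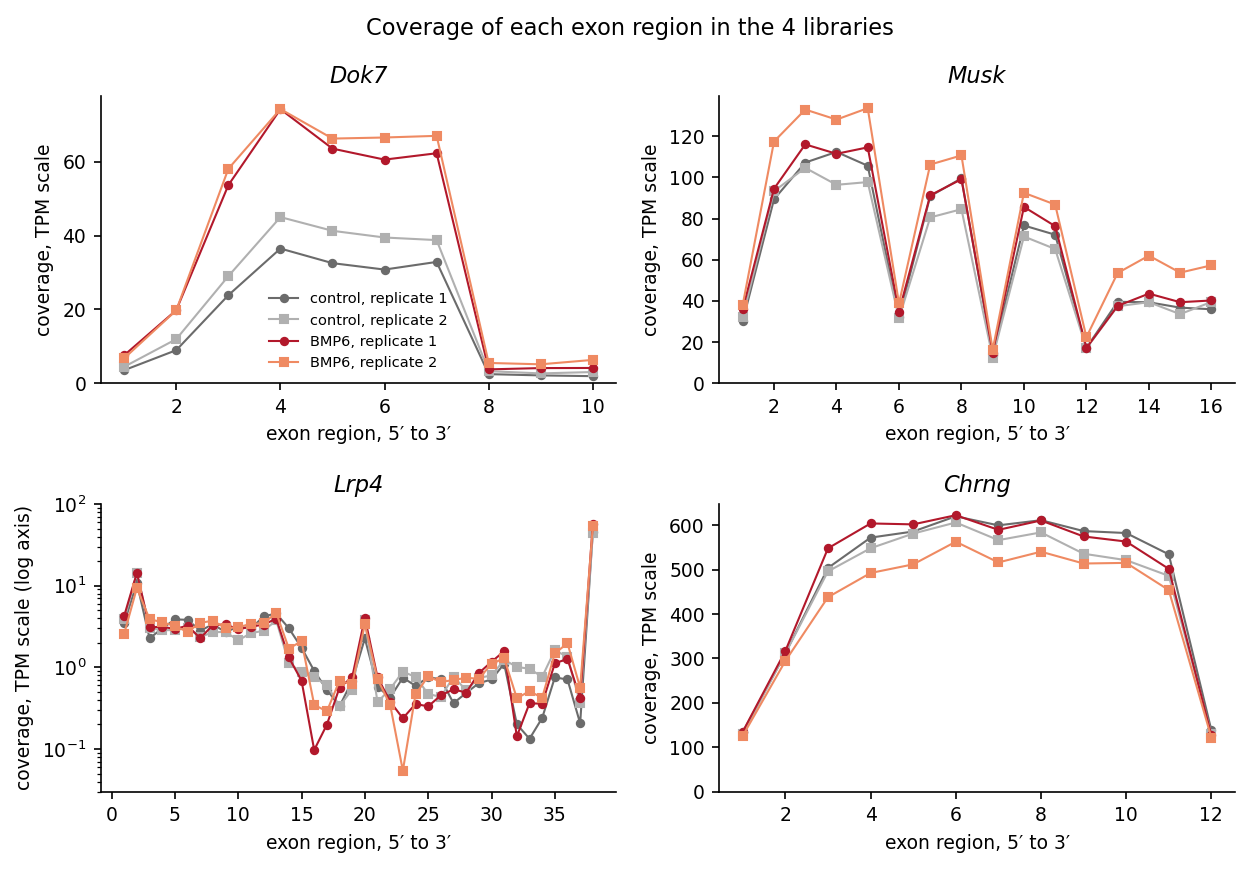
Coverage on the TPM scale (log axis for *Lrp4*) by exon region from 5′ to 3′ for *Dok7*, *Musk*, *Lrp4* and *Chrng*, with 1 line per library. *Dok7* is higher after BMP6 in every region, *Lrp4* has most of its coverage in the last region, at 43.9 to 57.0, and *Musk* stands apart mainly in BMP6 replicate 2.

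Genes that work beside these 10 were taken from 6 lists with 64 genes, of which 43 were tested. None of the 43 passed the adjusted p by limma with or without the block, and none by limma voom on rebuilt reads; at an unadjusted p under 0.05 the number was 0 without the block, 0 by voom and 5 with the block, where 12.7% of named entries passed. Of the 43, 24 were higher and 19 lower after BMP6. The 11 nicotinic subunits of nerve cells and other tissues were all below the limit, at most 0.589 TPM in any library, with *Chrna7* highest at 0.411 ± 0.25 TPM and *Chrna4* at 0.202 ± 0.0071 TPM (SD, n = 2) in the control group. *Chrna2* and *Chrna3* were listed at 0 in every library.

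All 14 partners of the clustering signal, the proteins that carry it from MuSK to the cytoskeleton, were tested. After BMP6, 9 were higher and 5 lower, and their median log2 fold change was 0.022. *Cttn*, the actin-binding protein cortactin, had 102 TPM in control and 117 TPM in BMP6 libraries, the largest difference of the list at 0.18, with 0.037 and 0.32 in the pairs. *Dnaja3*, a co-chaperone that binds MuSK, had 86.1 TPM in control and 90.3 TPM in BMP6 libraries. *Abl2*, a kinase of the Abl family, was at 1.96 and 1.63 TPM (log2 fold change -0.16).

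The list of the synaptic basal lamina and the dystroglycan complex had 13 of 17 genes tested, 5 higher and 8 lower, with a median of -0.077. *Itga7*, a laminin receptor, had 227 TPM in control and 199 TPM in BMP6 libraries (log2 fold change -0.19, adjusted p 0.200 by limma with the block). *Dag1*, dystroglycan, had 153 and 157 TPM. *Lamb2*, the laminin chain of synaptic basal lamina, was at 19.8 and 17.0 TPM (-0.21), and *Hspg2*, perlecan, at 3.70 and 3.10 TPM (-0.20). *Ache*, the enzyme that breaks down acetylcholine, lay just below the limit at 0.988 and 0.994 TPM and is named for its role, outside the rule for naming genes.

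Of the 8 neuregulin receptors and ETS factors, 5 were tested, 3 higher and 2 lower, with a median of 0.15. *Gabpa* and *Gabpb1*, the subunits of the ETS factor GABP that binds the N-box, had 16.8 and 18.1 TPM in control and 19.1 and 22.5 TPM in BMP6 libraries. Their log2 fold changes were 0.16 and 0.29, and that of *Gabpb1* had an adjusted p of 0.233 by limma with the block. *Erbb4* was listed at 0 in every library.

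Of the 9 genes that follow electrical activity or denervation, 6 were tested, 4 higher and 2 lower, with a median of 0.046. *Myog* had 4962 TPM in control and 4701 TPM in BMP6 libraries, and *Ncam1*, an adhesion molecule that spreads over denervated muscle, had 676 and 655 TPM. *Runx1*, a factor that denervation induces, was at 37.6 and 43.1 TPM (log2 fold change 0.19), and *Myod1* at 575 and 627 TPM (0.13). The 5 glycosylation genes of myasthenic syndromes were all tested, 3 higher and 2 lower, with a median of 0.015. *Dpagt1*, which starts N-linked glycans, had 53.9 and 50.3 TPM (-0.10), *Alg14* 50.4 and 51.7 TPM (0.037), and *Alg2* 16.5 and 17.8 TPM (0.093).

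Markers of nerve were near 0. Of 8 motor neuron markers, 4 were listed at 0 in all libraries, among them *Chat*, the enzyme that makes acetylcholine, and *Mnx1*, a motor neuron identity factor. The summed level of the list was 0.816 to 0.927 TPM in control and 1.48 to 1.92 TPM in BMP6 libraries, nearly all of it *Isl1*, a homeobox factor also used outside neurons, at 0.848 and 1.65 TPM (log2 fold change 0.52, unadjusted p 0.0187 and adjusted p 1.0 by limma). *Syt2*, of the same list, averaged 0.0155 TPM in control libraries.

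Markers of other cells of muscle were low except for *Col1a1*. The 3 endothelial markers, led by *Emcn* at 0.0716 and *Pecam1* at 0.0485 TPM in control libraries, summed to at most 0.298 TPM in any library. The 2 immune markers, *Cd68* at 1.09 and *Ptprc* at 0.0031 TPM in control libraries, summed to 1.03 to 1.15 TPM in control and 0.905 to 1.68 TPM in BMP6 libraries. The 2 pericyte markers, mostly *Pdgfrb* at 4.62 and 4.67 TPM beside *Rgs5* at 0.362 and 0.716 TPM, summed to 4.97 to 5.00 TPM in control and 5.29 to 5.49 TPM in BMP6 libraries. The 3 fibroblast markers, mostly the collagen gene *Col1a1* at 53.5 and 46.1 TPM beside *Dcn* at 1.38 and 1.44 TPM, summed to 45.5 to 64.6 TPM in control and 35.3 to 59.9 TPM in BMP6 libraries. *Col1a1* was lower after BMP6 in both pairs, with differences of -0.12 and -0.36 (log2 fold change -0.24, adjusted p 1.0 by limma and 0.282 with the block), with overlapping groups, and the pericyte sums did not overlap. None of the tested markers of these lists passed the adjusted p by limma in either fit, and their part in the results was not tested.

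The 10 muscle stem cell and muscle markers were all tested, and 8 were lower after BMP6, with a median of -0.082. *Des*, the muscle intermediate filament protein desmin, passed only with the block: it had 1038 TPM in control and 880 TPM in BMP6 libraries, a log2 fold change of -0.24 with an adjusted p of 0.0312 by limma with the block and 1.0 without it. *Myh8*, the perinatal myosin heavy chain, was at 82.9 and 72.1 TPM (-0.21). The receptor genes *Chrna1*, *Chrnb1* and *Chrng* and *Rapsn* had the same sign as most of these markers, while *Dok7*, *Musk* and *Lrp4* had the opposite sign. The part of the differentiation state of the cells in either was not tested.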

How the data were processed

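Libraries were made by the Smart-seq2 protocol from polyA RNA, finished with Nextera XT, unstranded and without molecular identifiers. Per the labels and the study, STAR 2.7.11a placed paired reads of 100 bases on GRCm39 (GENCODE M32), and the authors ran SAMtools 1.17 and StringTie 2.2.1 with its correction for reads of several places switched off. The authors deposited TPM and FPKM per gene. They also deposited coverage, a signal in mean read depth per base, for genes, transcripts and exons. TPM is relative to all RNA of a library, and depth had to be estimated as coverage times length over 100, which gave 108100000 to 112000000 reads a library. All 40 values of the 10 genes were the same in the joined table and the tables of the libraries.

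TPM was tested as log2(TPM + 1) with limma 3.58.1 (R 4.3.3, trend), on 13128 entries with a mean of at least 1 TPM, with Benjamini-Hochberg adjustment over all of them. A change of 2-fold up or down (to 0.5) whose adjusted p was below 0.1 counted as a call, and 10645 entries with a regular gene name were eligible. Fold changes on this scale understate those of low genes. The main fit had no block. The labels give same-numbered libraries 1 batch, and the correlation of their deviations from the group means was 0.56, so blocked values stand beside results they change. All 10 genes are named, and from every other list the genes past the adjusted p, the 2 highest in control and the 2 tested genes of largest change. The genes and lists were chosen with earlier results of these data known. Genes of like pattern were not searched for, as 4 libraries are too few. Copies were searched with BLAST+ 2.17.0. Alternatives were a replicate block, other pseudocounts, filters and scalings, FPKM, voom on rebuilt reads, and leaving out each library. The steps were tested on simulated data. Results of 1 marker list are not reported here.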

Additional observations from a re-analysis of the deposited data

How the results depend on the processing

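None of the 10 genes was called under any of the 14 alternatives. The number past the adjusted p at any fold, 0 in the unpaired fit, was 1 with the replicate block, 1 with that block in a voom fit of rebuilt reads, and 0 to 1 when a library was left out (1 without control replicate 2). That gene was *Dok7* each time. Without control replicate 2 its adjusted p was 0.0982, in a fit where the lone control library is assumed to vary like the BMP6 libraries. Its log2 fold change ranged from 0.72 to 0.99 and its adjusted p by limma from 0.00032 to 0.768. The block took no other of the 10 genes past the adjusted p. The log2 fold change of *Chrnd* turned from -0.0010 to 0.0084 without BMP6 replicate 1 and to 0.048 without control replicate 1, within -0.050 to 0.048 when a library was left out. That of *Chrng* turned from -0.065 to 0.013 without BMP6 replicate 2, within -0.14 to 0.013. The other tested genes kept their sign. The difference in the log2 ratio of *Chrng* to *Chrne*, -0.12, was -0.12 as the mean of the pairs, -0.071 with 1 added to both values, and -0.35 to 0.12 when a library was left out. Over all named entries the calls were 24 higher and 0 lower without the block and 36 and 1 with it, and at the adjusted p alone 28 and 1 against 141 and 34. Depth limits *Chrne* and *Agrn*, and with 2 libraries a group no exact test on a single value can pass.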
